A study of Mus musculus with 9 samples.

Results

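The 73 genes described here are the heat shock and chaperone genes of the deposited table, chosen by gene symbol alone and not by their values. The rule took symbols that begin with Hsp, Dnaj or Cct2 to Cct8, with Bag1 to Bag6, Hsf1, Hsf2, Ahsa1, St13 and Stip1, and left out 5 chaperones of the endoplasmic reticulum and the proteoglycan gene Hspg2. It found 73 of 14940 symbols: 36 DnaJ genes, 9 chaperonin (CCT) genes, 7 Hsp70 genes, 5 BAG genes, 5 other co-chaperone genes, 4 small heat shock protein genes, 3 Hsp110 genes, 2 heat shock factor genes, the Hsp90 gene Hsp90ab1 and the Hsp10 gene Hspe1. Of these, 70 had values high enough to be tested, and Bag3, Cct6b and Dnajb13 did not. The name "cytosolic" covers most but not all of them. The products of 7 members, among them Hspe1 and Hspa9, were assigned to the mitochondrion. Those of 5, among them Hspa13 and Dnajc10, were placed in or at the endoplasmic reticulum. The assignment was made with the results known and may be incomplete. Of 31 core symbols of these families, 24 were in the table. Hspa8, Hsp90aa1, Hspb1, Hspd1, Dnaja1, Dnajb6 and Bag2 were not analysed here, so the constitutive Hsp70, the inducible Hsp90 and mitochondrial Hsp60 are missing from what follows.

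RNA came from sorted bone marrow cells that lack lineage markers and carry Sca1 and cKit (LSK cells), a gate that takes in stem cells and multipotent progenitors. All mice were C57BL/6, and their age is not given in the labels. A first group of 3 mice was naive. A second group of 3 had been immunized with complete Freund's adjuvant and a peptide of myelin oligodendrocyte glycoprotein (MOG35-55), the model called experimental autoimmune encephalomyelitis (EAE), and was taken at day 3. A further 3 were immunized in the same way and given SR59230A, an antagonist of β3 adrenergic receptors, over those 3 days. No group received adjuvant alone and no vehicle is named, so adjuvant cannot be told apart from peptide, nor the antagonist from its administration. No naive mice are listed at day 3, so the day of collection cannot be told apart from immunization.

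Chaperones bind proteins that are not yet folded, or no longer folded, and release them in rounds of ATP hydrolysis. Hsp70 proteins hold short exposed stretches of a client, and DnaJ (Hsp40) proteins bring the client and start hydrolysis. Hsp110 and most BAG proteins exchange the nucleotide so that the client is let go. The co-chaperone Stip1 (Hop) passes clients from Hsp70 to Hsp90, which matures kinases and receptors, and Ahsa1 stimulates the ATPase of Hsp90. The CCT chaperonin is a double ring that folds actin, tubulin and other proteins in its cavity. Upon heat or other proteotoxic stress, the transcription factor HSF1 binds heat shock elements and induces genes such as Hspa1a, Hspa1b, Dnajb1 and Hsph1, while most other members are expressed constitutively.

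The deposited values summed to between 8641735 and 10387955 per library. They are adjusted whole numbers and not read counts. Sequencing depth is therefore unknown, and values carry no counting interval. Values below are scaled between libraries, without correction for gene length. Fold changes and their standard errors (SE) are on the log2(scaled value + 1) scale unless called a plain fold, and "rose" and "fell" are used of genes with an adjusted p under 0.05 (limma-trend with Benjamini-Hochberg adjustment over 13018 genes). A list of 5 genes, Kit and Ly6a (Sca1) of the sort gate with Ptprc, Cd34 and Flt3, was expressed in every group, with a summed value of 19610 to 25110. In EAE against naive mice Kit fell by 0.43 ± 0.09 and Flt3 by 0.44 ± 0.10, while Ly6a rose by 0.46 ± 0.12. Ptprc and Cd34 did not pass. Marker genes of subsets within the gate differed between groups. All 6 tested granulocyte-monocyte progenitor markers rose in EAE mice, with a sum of 1854 to 2465 in naive and 13400 to 20490 in EAE libraries, and 6 of 7 stem cell markers fell, with a sum of 6151 to 6951 against 2971 to 3119. Mature neutrophil markers summed to 2276 to 6039 in naive and 3052 to 15230 in EAE libraries. In bulk RNA, a change in the proportion of cell types and a change of expression within cells cannot be told apart. The part of these shifts in the results below was not tested.

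Promoter sequences of 60 of the 73 members were found in RefSeq (build GRCm38.p6, 250 bases before to 50 bases after each annotated start). They are shown for 4 of the genes with a match to the heat shock element, the binding site of HSF1. The letters searched were GAANNTTC, which read the same on both strands, and a longer form of 13 letters that contains them, with a further TTC placed 2 bases before or a further GAA placed 2 bases after. The short form was present in 11 of 60 members (18.3%) and in 848 of 11232 genes of the table that had a promoter (7.55%). The long form was present in 2 members (3.33%), Hspe1 and Hsph1, and in 71 of the 11232 genes (0.632%). Of the 11 members with a promoter that rose in EAE against naive mice, these 2 had the short form (18.2%), a share like that of all members. Other members with the short form did not rise, and the heat-inducible Dnajb1 had no match. A match is a description of letters and not a bound site. The stretches below run from 120 bases before the start to the first 30 bases of the transcript, 5′ to 3′ on the strand of the gene, with the matched letters in capitals.
Hsph1 (chr5:149636286-149636435, minus strand): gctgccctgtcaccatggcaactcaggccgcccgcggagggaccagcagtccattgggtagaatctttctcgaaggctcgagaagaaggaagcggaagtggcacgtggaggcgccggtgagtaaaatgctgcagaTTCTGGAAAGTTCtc
Hspe1 (chr1:55088028-55088177, plus strand): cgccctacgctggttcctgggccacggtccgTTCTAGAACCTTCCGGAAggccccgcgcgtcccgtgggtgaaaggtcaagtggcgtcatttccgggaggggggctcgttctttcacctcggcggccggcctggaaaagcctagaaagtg
Hspa1a (chr17:34972127-34972276, minus strand): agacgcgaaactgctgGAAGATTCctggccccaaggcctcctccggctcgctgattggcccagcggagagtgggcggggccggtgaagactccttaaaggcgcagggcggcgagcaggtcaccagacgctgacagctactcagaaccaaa
Hspa1b (chr17:34959209-34959358, minus strand): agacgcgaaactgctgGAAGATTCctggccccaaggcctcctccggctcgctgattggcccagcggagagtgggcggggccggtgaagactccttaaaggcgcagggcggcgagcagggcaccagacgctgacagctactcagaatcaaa
The long match in Hspe1 began 89 bases before the start, and in Hsph1 it lay 15 bases after the annotated start used here and 36 bases after a second annotated start. The short match in Hspa1a and Hspa1b began 104 bases before the start. The stretches of Hspa1a and Hspa1b are identical at 148 of 150 bases. These are near-identical gene copies, and no source used here tells how reads were divided between them, so the values of each are uncertain.

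EAE mice, taken at day 3, were first compared with naive mice. In EAE mice 15 of the 70 tested members rose (21.4%), against 9.13% of all genes tested, and 1 fell (1.43%), against 5.1%. The rises were modest, between 0.33 and 0.69 on the log2 scale. They were found in the Hsp110 genes Hsph1 and Hspa4, the co-chaperone genes Stip1 and Ahsa1, the CCT subunit genes Cct3, Cct4, Cct5, Cct6a and Cct8, the mitochondrial genes Hspe1, Hspa9, Dnajc15 and Dnajc11, and the DnaJ genes Dnaja2 and Dnajc2. The gene that fell was Hspa12b. Over the 70 members the median log2 fold change was 0.083, against -0.003 over all genes. Above 0 were 46 of them, and 6452 of the 13018 genes tested. Both values depend on the scaling between libraries. With upper-quartile scaling 35 of the 70 were above 0, and their median was 0.008, against -0.078 over all genes. All 3 EAE libraries lay above all 3 naive libraries in 23 members (32.9%), where 21% of all genes did so, and below them in 4 (5.71%), where 18.4% did. Which of the 15 passed changed when single libraries were left out. Those fits keep 2 covariates computed from all 9 libraries, which are then no longer balanced over the groups. Their log2 fold changes are therefore not differences of the remaining means. Nor does a lost call show that a rise rests on the library left out. None of the 15 passed the threshold without naive replicate 1 (log2 fold changes from 0.27 to 0.66, limma-trend adjusted p from 0.0547 to 0.345). Without EAE replicate 2, 4 did, and 9 did without naive replicate 3 or without EAE replicate 1. Calls fell over all genes too in these fits, from 1189 higher genes to 294 without naive replicate 1, 641 without EAE replicate 2, 890 without naive replicate 3 and 895 without EAE replicate 1. Without scaling between libraries 4 passed, namely Cct8, Hsph1, Hspa4 and Stip1. All 15 stayed above 0 in each of these fits.

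**Figure D1:**
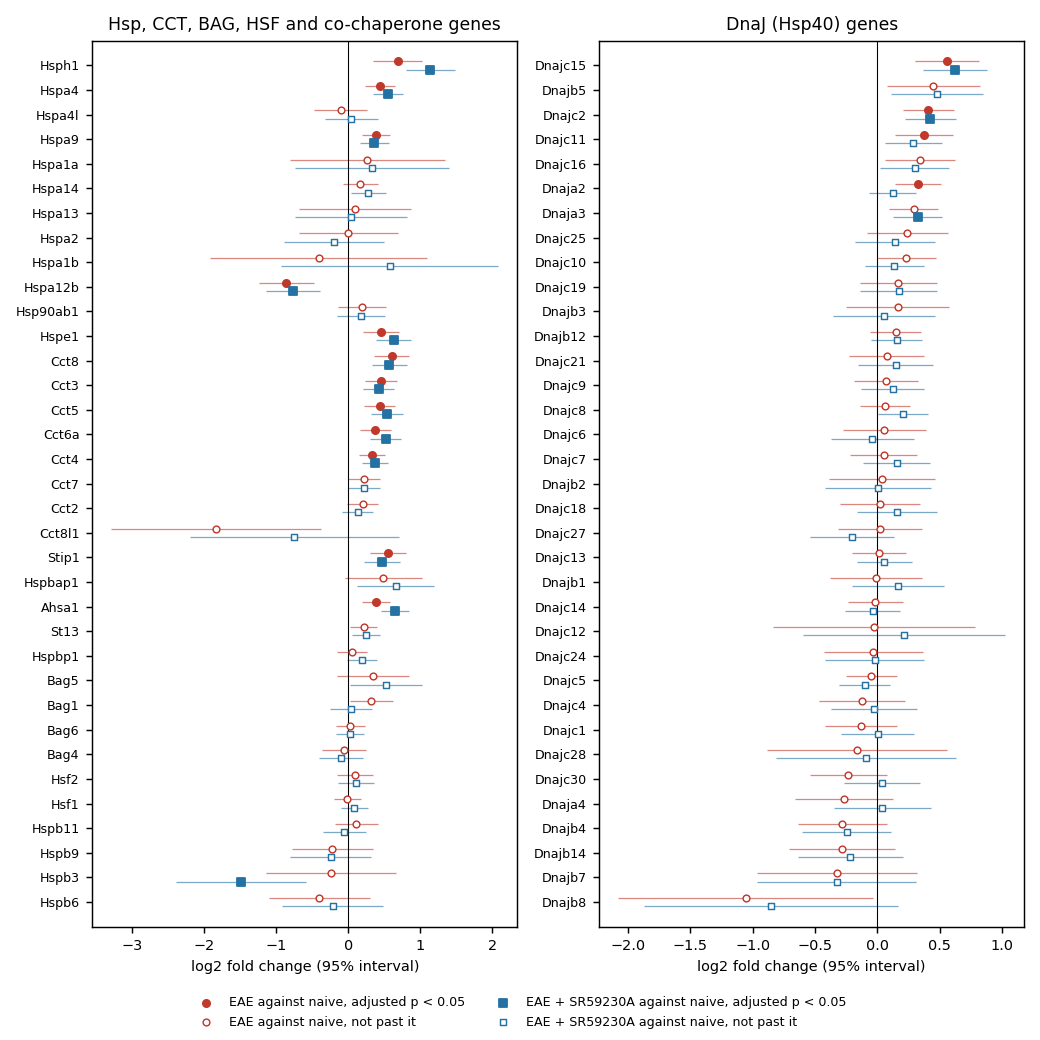
Log2 fold change of the 70 tested members against naive mice, with 95% intervals, for EAE (circles) and EAE + SR59230A mice (squares), with DnaJ genes on the right and all others on the left. Filled symbols mark an adjusted p under 0.05, and most of them lie in the Hsp110, CCT and co-chaperone groups between 0.3 and 0.7. Both contrasts use the same naive libraries.

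Among the partners of Hsp70, the largest rise was that of an Hsp110 gene. Hsph1, which encodes the heat-inducible nucleotide exchange factor Hsp105, stood at 1036, 1548 and 1282 in the naive libraries, at 2338, 2091 and 1744 in the EAE libraries, and at 2484, 3133 and 2825 in the libraries of mice given SR59230A. Each EAE library exceeded each naive library, and each library with the antagonist exceeded each EAE library. In EAE mice Hsph1 rose 1.61-fold (log2 fold change 0.69 ± 0.16, SE, limma-trend adjusted p = 0.0139). In the fit without naive replicate 1, which keeps the 2 covariates, this value was 0.29, with a limma-trend adjusted p of 0.295. The EAE libraries all lay above the remaining naive ones. Hspa4 (Apg-2), its constitutive relative, rose 1.36-fold, from 2878 ± 177 in naive to 3909 ± 119 in EAE mice (mean ± SD, n = 3 each). Its lowest EAE library, at 3782, lay above the highest naive library, at 3038. Hspa4l, the remaining Hsp110 gene, was at 193 to 240 in EAE and 203 to 245 in naive libraries, and the groups overlapped.

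Of the genes around Hsp90, the co-chaperone genes Stip1 and Ahsa1 rose and Hsp90ab1 did not pass the test. Stip1, which hands clients from Hsp70 to Hsp90, was at 3100, 3438 and 3578 in naive and at 5324, 5347 and 4204 in EAE libraries. It rose 1.47-fold (log2 fold change 0.55 ± 0.11, SE, limma-trend adjusted p = 0.00889), although EAE replicate 3 stood well below the other two. Ahsa1, the activator of the Hsp90 ATPase, was tight in naive mice at 1624, 1669 and 1627, and was higher in all EAE libraries at 2035, 2324 and 2043 (1.3-fold, adjusted p = 0.0162). Hsp90ab1, which encodes constitutive Hsp90β, had the highest level of all members per kilobase of exon, 13320 in naive mice, followed by Cct5 at 2088, Stip1 at 1600 and Hspe1 at 1312. The library kit is not given, so whether values scale with gene length is unknown. Between EAE and naive mice Hsp90ab1 overlapped, at 39970 to 49010 against 37390 to 42020, and did not pass the test (0.19 ± 0.15, adjusted p = 0.447, 95% interval -0.14 to 0.52). The Hsp70-interacting protein gene St13 had a log2 fold change of 0.21 ± 0.09 with groups that did not overlap, at 1226 to 1329 against 1429 to 1525, and did not pass either (adjusted p = 0.128). Hspbp1 and Hspbap1 differed by 0.05 and 0.49, below the threshold.

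**Figure D2:**
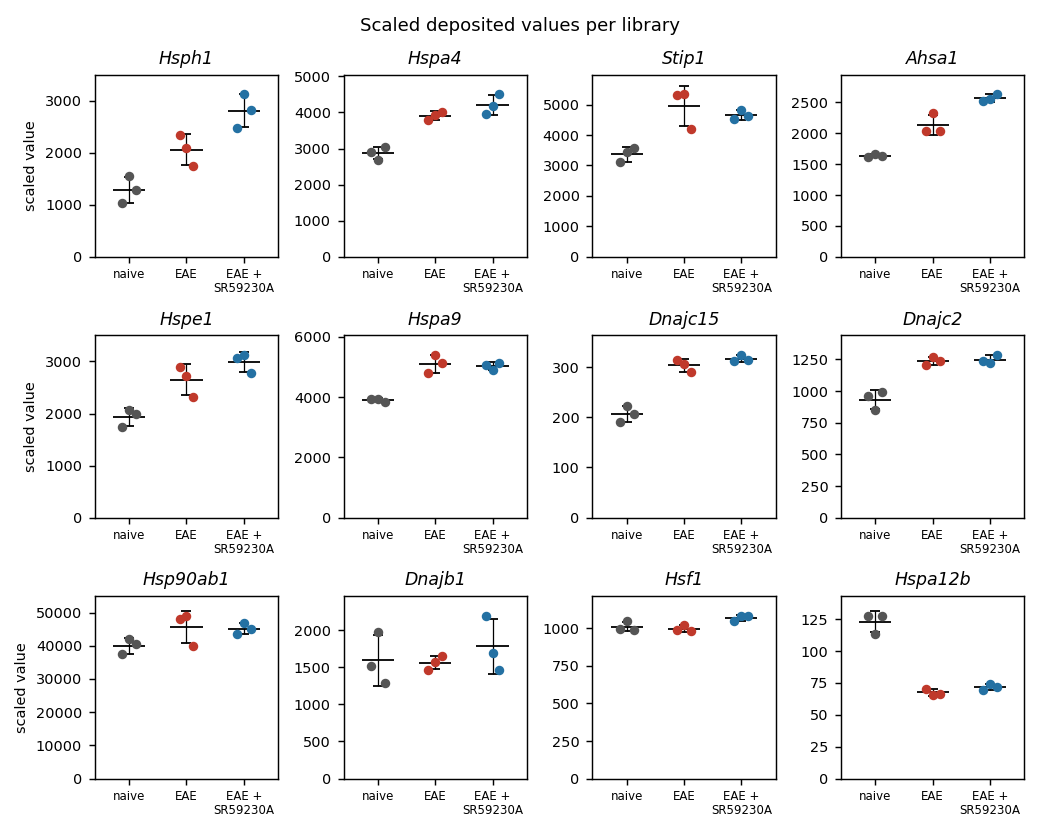
Scaled value of 12 members in each of the 9 libraries, on linear axes from 0, with the group mean and SD as bars. Hsph1 lies at 1036 to 1548 in naive, 1744 to 2338 in EAE and 2484 to 3133 in EAE + SR59230A libraries, Hsf1 lies between 983 and 1084, and Hspa12b is lower in both immunized groups.

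Of the families with more than 3 tested members, CCT had the largest share of rises (62.5%, against 9.13% of all genes). Of the 3 Hsp110 genes 66.7% rose, and so did the single Hsp10 gene Hspe1. Of the 7 tested ring subunit genes from Cct2 to Cct8, 5 rose and all 7 had a positive log2 fold change, with a median of 0.37. The summed value of the CCT genes was 16260 to 17290 in naive, 21100 to 23270 in EAE and 22440 to 23050 in antagonist-treated mice. Cct8, the theta subunit, was at 2173, 2381 and 1987 in naive and 2992, 3309 and 3633 in EAE libraries, a 1.52-fold rise (0.61 ± 0.11, adjusted p = 0.00479). Cct5, the most abundant CCT member per kilobase, went from 5673 to 5867 in naive to 7224 to 8585 in EAE libraries (1.35-fold). Cct3 rose by 0.46 ± 0.10, Cct6a by 0.37 ± 0.10 and Cct4 by 0.33 ± 0.08, each with no overlap between the groups. Of 18 alternative fits, Cct4 did not pass in 8, Cct6a in 6 and Cct3 in 3. Cct2 (0.20 ± 0.10, adjusted p = 0.208) and Cct7 (0.21 ± 0.10, adjusted p = 0.188) did not pass, and in each of them EAE replicate 3 lay within the naive range. Tcp1, which encodes the first ring subunit but falls outside the symbol rule, rose by 0.41 ± 0.08, from 1863 to 1990 in naive to 2465 to 2594 in EAE libraries. The testis-type member Cct6b was too low to test, and Cct8l1, which lies outside the ring, was near the floor at 11.2 to 25.4 in naive and 1.02 to 10.8 in EAE libraries (log2 fold change -1.84 ± 0.66, adjusted p = 0.09).

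**Figure D3:**
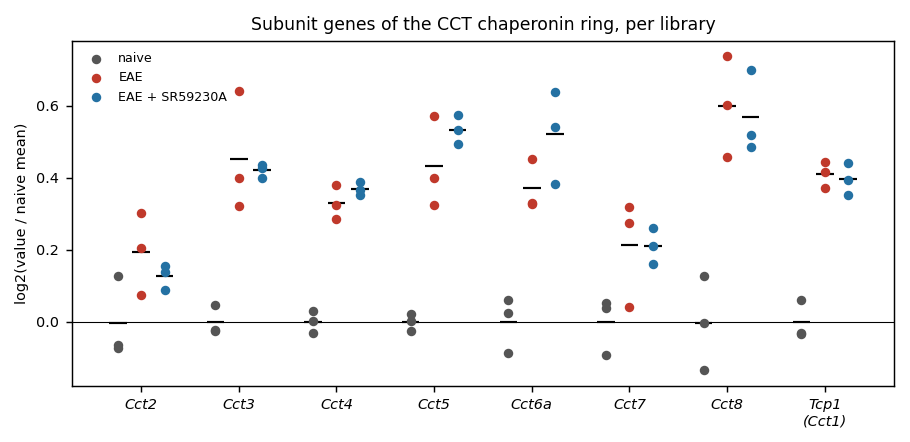
Log2 ratio of each library to the naive mean for the 7 ring subunit genes of the symbol rule and for Tcp1, with bars at the group means. The immunized libraries of Cct3, Cct4, Cct5, Cct6a, Cct8 and Tcp1 all lie above the naive ones, while those of Cct2 and Cct7 lie closer to 0.

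Genes that work with the chaperonin were counted from a list of 15 tested genes outside the rule, which includes the prefoldin subunits and tubulin cofactors. In EAE mice 3 of them rose (20%, against 9.13% of all genes), the others did not pass, and the median was 0.13. Beside Tcp1 they were Txndc9 (0.33 ± 0.09), which encodes a phosducin-like regulator of the ring, and the tubulin cofactor gene Tbcb (0.44 ± 0.10). The prefoldin genes Pfdn2 (0.11 ± 0.11) and Vbp1 (0.22 ± 0.10) did not pass. Of 5 tested actin and tubulin genes, the main substrates, only Tubg1 passed (0.32 ± 0.10, adjusted p = 0.0494). Actb was at 72290 to 76840 in naive and 75590 to 95050 in EAE libraries, which overlapped.

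Of the 7 members assigned to the mitochondrion, with the results known, 4 rose (57.1%, against 9.13% of all genes) and none fell (median 0.37). Of the rest, 1 had a negative value. The assignment may be incomplete, and both the share and the median depend on it. Of the 5 at the endoplasmic reticulum none passed (median 0.09). Hspe1, which encodes Hsp10, the lid of the mitochondrial Hsp60 chamber, stood at 1741, 2071 and 1990 in naive and 2898, 2728 and 2324 in EAE libraries (0.45 ± 0.11, adjusted p = 0.02). Without naive replicate 1 its value was 0.27 (adjusted p = 0.343). Hspe1 has processed pseudogenes elsewhere in the genome, as has Hsp90ab1, and how the counting treated reads shared with them is not given. Hspa9 (mortalin), the mitochondrial Hsp70, rose from 3913 ± 53.1 to 5112 ± 296 (mean ± SD, n = 3 each). Dnajc15, a J-protein of the inner membrane import motor, rose from 190 to 222 in naive to 290 to 314 in EAE libraries (0.56 ± 0.12, adjusted p = 0.00974). Dnajc11, a J-protein associated with cristae organization, rose by 0.37 ± 0.10 (limma-trend adjusted p = 0.0353). It did not pass in 10 of 18 alternative fits, among them those without scaling and with upper-quartile scaling. Dnaja3 (Tid1), the J-partner of mortalin, lay just outside the threshold with 0.29 ± 0.09 (adjusted p = 0.0502), although its EAE libraries (1039 to 1099) were all above the naive ones (836 to 923). In a list of 14 other mitochondrial folding and protease genes, 3 rose (21.4%), namely Lonp1, Grpel1 and Htra2, and none fell. Grpel1, the nucleotide exchange factor of mortalin, rose by 0.47 ± 0.12.

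The DnaJ family as a whole had a share of rises close to that of all genes. Of its 35 tested genes 4 rose in EAE mice (11.4%, against 9.13% of all genes) and none fell (5.1% of all genes did). The median log2 fold change was 0.04. By class, 1 of 3 class A, none of 9 class B and 3 of 23 class C genes passed. Besides the mitochondrial genes, those that rose were Dnaja2, a general partner of Hsp70, and Dnajc2 (MPP11, zuotin), which acts on chains emerging from the ribosome. Dnaja2 was at 1730, 1897 and 1721 in naive and 2191, 2286 and 2211 in EAE libraries (0.33 ± 0.09, adjusted p = 0.0262). It did not pass in 8 of 18 alternative fits. Dnajc2 went from 847 to 994 in naive to 1202 to 1266 in EAE libraries (0.41 ± 0.09, adjusted p = 0.0135). Dnajc7, which binds both Hsp70 and Hsp90, overlapped between groups, at 1559 to 2077 in naive and 1643 to 2049 in EAE mice. The low-level genes Dnajb8 (-1.06 ± 0.47) and Dnajb7 (-0.32 ± 0.29) had the largest negative values of the family and did not pass.

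The classical heat-inducible members Hspa1a, Hspa1b and Dnajb1 did not pass. Hspa1a was at 22.3, 65.4 and 16 in naive and 33.4, 43 and 29.2 in EAE libraries, and Hspa1b at 40.6, 181 and 19.7 in naive and 30.7, 55.3 and 36.5 in EAE libraries. For both genes naive replicate 2 was the highest of the naive libraries by a wide margin, and the groups overlapped. The intervals of the log2 fold change were correspondingly wide, from -0.81 to 1.34 for Hspa1a and from -1.92 to 1.10 for Hspa1b. In the fit without naive replicate 3, which keeps the 2 covariates, the log2 fold change of Hspa1b was -1.57 and passed the threshold (limma-trend adjusted p = 0.0468). Dnajb1, the inducible Hsp40, was at 1518, 1972 and 1291 in naive, 1469, 1566 and 1649 in EAE and 2194, 1696 and 1468 in antagonist-treated libraries. Its interval for EAE against naive ran from -0.38 to 0.36 around -0.01. Of the co-chaperone Bag3, also heat-inducible, the scaled values were 4.7 to 6.08 in naive and 4.09 to 10.4 in EAE libraries, too low to test. Neither gene of the factors passed. Hsf1 was at 989 to 1047 in naive and 983 to 1026 in EAE libraries (log2 fold change -0.02, 95% interval -0.20 to 0.17), and Hsf2 at 256 to 276 and 275 to 304 (0.09, interval -0.16 to 0.34).

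The same 2 libraries, naive replicate 2 and antagonist replicate 1, were highest within their groups in Hspa1a, Hspa1b and Dnajb1. They were also highest within their groups in the sum of immediate early genes, which are induced within minutes of handling or stimulation. Fos was at 10710, 18250 and 7105 in the naive and 26330, 15820 and 13680 in the antagonist-treated libraries, and Fosb at 1797, 4536 and 1014 and at 9676, 4852 and 3989. The sum over 18 such genes was 110400, 164900 and 75630 in naive, 101200, 131400 and 165400 in EAE and 191400, 129700 and 124200 in antagonist-treated libraries. Hsph1 was also highest in replicate 2 of the naive group but lowest in replicate 1 of the antagonist-treated group. In the EAE group the immediate early sum and Dnajb1 were highest in replicate 3, but Hspa1a and Hspa1b in replicate 2. The part of cell handling in these values was not tested. A further list held 10 tested genes that answer to heat or cold but are no chaperones, or that regulate HSF. In EAE mice 1 of them rose and 1 fell (10% each, against 9.13% and 5.1% of all genes). Mrpl18, a ribosomal protein gene with a heat-inducible cytosolic product, rose by 0.67 ± 0.09, and the cold-inducible RNA-binding protein gene Cirbp fell by 0.42 ± 0.10 on the log2 scale. Zfand2a, a strongly heat-inducible gene, was at 314 to 576 in naive and 442 to 555 in EAE libraries.

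**Figure D4:**
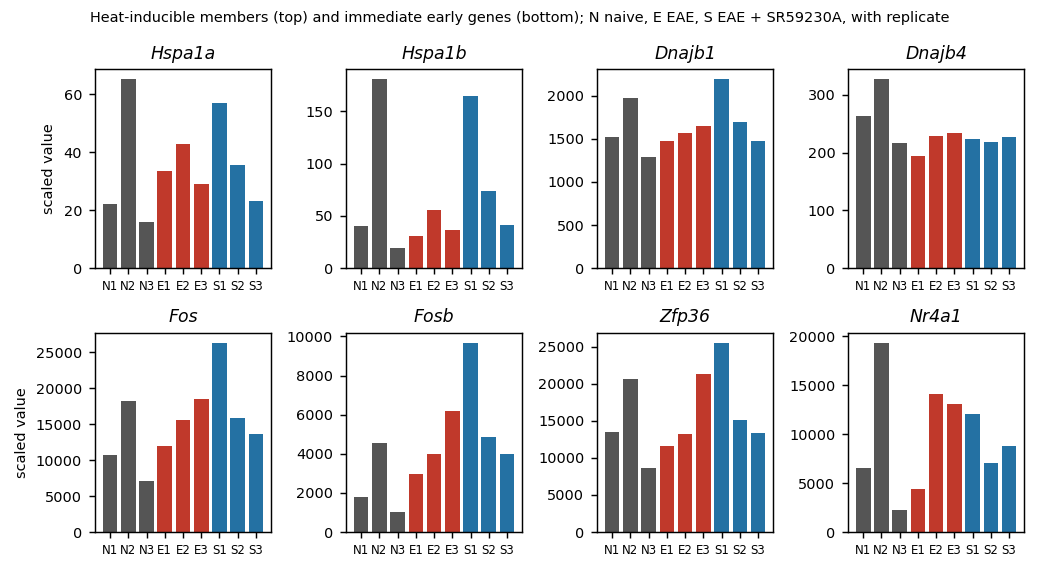
Scaled value per library of 4 heat-inducible members (top row) and 4 immediate early genes (bottom row), as bars from 0, where N, E and S with a number are naive, EAE and EAE + SR59230A replicates. N2 is the highest naive library in all 8 panels, at 181 for Hspa1b and 18250 for Fos, and S1 is the highest antagonist-treated library in 7 of them, all but Dnajb4.

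Hspa12b, a distant Hsp70 relative known from endothelial cells, was the only member that fell in EAE mice. It stood at 128, 114 and 128 in naive, 70.4, 65.5 and 66.7 in EAE and 69.2, 74.4 and 72.2 in antagonist-treated libraries, with all immunized libraries below all naive ones. The fall was by 0.86 ± 0.17 on the log2 scale, or 1.81-fold (adjusted p = 0.00794), and it did not pass without naive replicate 1 (adjusted p = 0.11). Of 3 tested stroma and endothelium markers 1 fell, and of 7 stem cell markers 6 fell. Their part in the fall of Hspa12b was not tested. The small heat shock protein genes, grouped by symbol, were Hspb3, Hspb6, Hspb9 and Hspb11. Their summed value was 244 to 282 in naive and 242 to 274 in EAE libraries, and none passed. Hspb11 held most of that sum, at 155 to 169 in naive and 171 to 184 in EAE libraries. The other 3 had negative log2 fold changes. The largest difference was that of Hspb6 (-0.40 ± 0.32). Among the BAG genes none passed, and Bag5 had the largest difference (0.35 ± 0.23, limma-trend adjusted p = 0.346). Of the tested core BAG genes Bag1 had the larger difference, at 266 to 314 in naive and 319 to 398 in EAE libraries (0.32 ± 0.14, adjusted p = 0.14). Bag6, which guards tail-anchored proteins, was at 3150 to 3524 and 3256 to 3500 (0.03 ± 0.09).

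Immunized mice with and without the antagonist were compared next. No member passed the threshold (limma-trend, smallest adjusted p = 0.998), against 0.00768% of all genes higher and 0% lower. At an unadjusted p under 0.05 there were 4 of 70 members, Hsph1, Ahsa1, Hspb3 and Dnaja2, and 504 of 13018 genes. All libraries with the antagonist lay above all EAE libraries in 5 members (7.14%), where 8.46% of all genes did so, and below them in 3 (4.29%), where 7.71% did. The median log2 difference over the members was 0.032, against 0.010 over all genes. The 95% interval of a member's difference had a median half-width of 0.30. That interval is not adjusted for the number of genes, and differences above 0.30, such as those of Hsph1 and Hspb3, did not pass the adjusted test either.

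For Hsph1 the difference between antagonist-treated and EAE mice was 0.45 ± 0.16 (95% interval 0.11 to 0.80, adjusted p = 0.998). It was -0.10 in the fit without antagonist replicate 2, which keeps the 2 covariates and so does not give the difference of the remaining means. The remaining values, 2484 and 2825, lie above every EAE library. Ahsa1 was at 2519, 2564 and 2636 with the antagonist, above the highest EAE library at 2324, a difference of 0.27 ± 0.09 (interval 0.08 to 0.47). Dnaja2 lay below every EAE library, at 1948, 1918 and 1949 (-0.20 ± 0.09, interval -0.39 to -0.02). Its antagonist-treated libraries lay above every naive library, at 1721 to 1897. Hspb3, a small heat shock protein gene of muscle, was at 14.4, 16.4 and 16.7 in EAE libraries and 4.07, 6.11 and 8.88 with the antagonist (-1.25 ± 0.41). Such values lie near the filter of 10 on deposited values. A set of 1125 chemosensory receptor genes, which blood cells do not normally use, was also summed. Its share of all values was 0.149% to 0.179% in naive and 0.106% to 0.12% in EAE libraries. In antagonist-treated libraries the share was 0.0797% to 0.0989%. Any part of such a background in the values of Hspb3 was not tested. Among the larger positive values, Hspa1b differed by 0.99 (interval -0.52 to 2.50) and Cct8l1 by 1.08 (interval -0.37 to 2.54), with overlapping groups, and Dnaja4 by 0.31 ± 0.18. Bag1 (-0.29 ± 0.14), Dnajc27 (-0.22 ± 0.15) and Hspa2 (-0.20 ± 0.32) had the other large negative values. For the CCT ring the differences were between -0.07 and 0.15, with a median of -0.003, and the interval for Cct8 ran from -0.28 to 0.21.

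Antagonist-treated mice were last set against naive mice, a comparison that shares its libraries with the others. Here 14 of 70 members rose (20%), against 10.2% of all genes, and 2 fell (2.86%), against 4.61%. All antagonist-treated libraries lay above all naive libraries in 30 members (42.9%; 26.4% of all genes) and below them in 3 (4.29%; 22.4%). Hsph1 had the largest rise, 2.21-fold (1.14 ± 0.16, adjusted p = 0.000911), followed by Ahsa1 at 1.57-fold (0.65 ± 0.09, adjusted p = 0.000902) and Hspe1 at 1.55-fold (0.63 ± 0.11). Dnajc15 rose by 0.62, Cct8 by 0.57, Hspa4 by 0.55, Cct5 by 0.53, Cct6a by 0.52 and Stip1 by 0.47. Hspa9, Dnajc2, Cct3, Cct4 and Dnaja3 rose by 0.32 to 0.42. Dnaja2 (0.12 ± 0.09) and Dnajc11 (0.29 ± 0.10, adjusted p = 0.0847) did not pass in this comparison. Hspb3 fell by 1.49 ± 0.41 and Hspa12b by 0.77 ± 0.17. The fall of Hspb3 did not pass in 6 of its 17 alternatives, nor that of Hspa12b in 5 of 18, all but 1 of which leave out a naive or antagonist library. The size for Hspb3 depends on the pseudocount, and was -0.83 with a pseudocount of 10. Without antagonist replicate 2 none of the 14 rises passed (adjusted p from 0.0626 to 0.522), without naive replicate 1 the rises of Ahsa1, Hsph1 and Hspa4 passed, and without antagonist replicates 1 and 3 in turn 9 and 8 passed. All 14 stayed positive. In the fit without antagonist replicate 2 the log2 fold changes of the 14 were between 0.22 and 0.78, with Hsph1 at 0.64, Hspe1 at 0.42 and Stip1 at 0.25. That fit keeps the 2 covariates, so these are not differences of the remaining means. The remaining antagonist libraries of Hsph1 (2484 and 2825) and Stip1 (4517 and 4632) lay above every naive library. Over all genes 1332 were higher with every library, 121 without antagonist replicate 2, 334 without naive replicate 1, and 787 and 551 without antagonist replicates 1 and 3. Without scaling 5 passed, namely Ahsa1, Cct8, Cct5, Hsph1 and Hspa4, and Dnaja3 was at 0.21.

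The members can be set beside lists of neighbouring genes, given as counts and medians. Of all genes tested, 9.13% rose in EAE and 10.2% in antagonist-treated mice, each against naive. Of 16 chaperone and folding genes of the endoplasmic reticulum, which the rule left out or does not cover, 11 rose in EAE mice (68.8%, median 0.54). In antagonist-treated mice 14 rose (87.5%, median 0.73). Hsp90b1 (Grp94), the Hsp90 of that compartment, went from 5653 to 7609 in naive to 9237 to 12380 in EAE libraries (0.75 ± 0.14). Its cytosolic relative Hsp90ab1, as above, did not pass. Of 26 Hsp90 and Hsp70 co-chaperone genes outside the rule 4 rose in EAE mice (15.4%), namely Fkbp5, Nudc, Ruvbl2 and Tomm70a, and none fell (median 0.13). Nudc, a co-chaperone of Hsp90, rose by 0.56 ± 0.10. Of 14 cell division genes 10 rose (71.4%) and the others did not pass (median 0.42). Their sum was 16300 to 17350 in naive and 20690 to 22360 in EAE libraries. The part of cell division in the rises of the CCT and mitochondrial members was not tested. Of 18 immediate early genes 2 rose in EAE mice (11.1%).

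**Figure D5:**
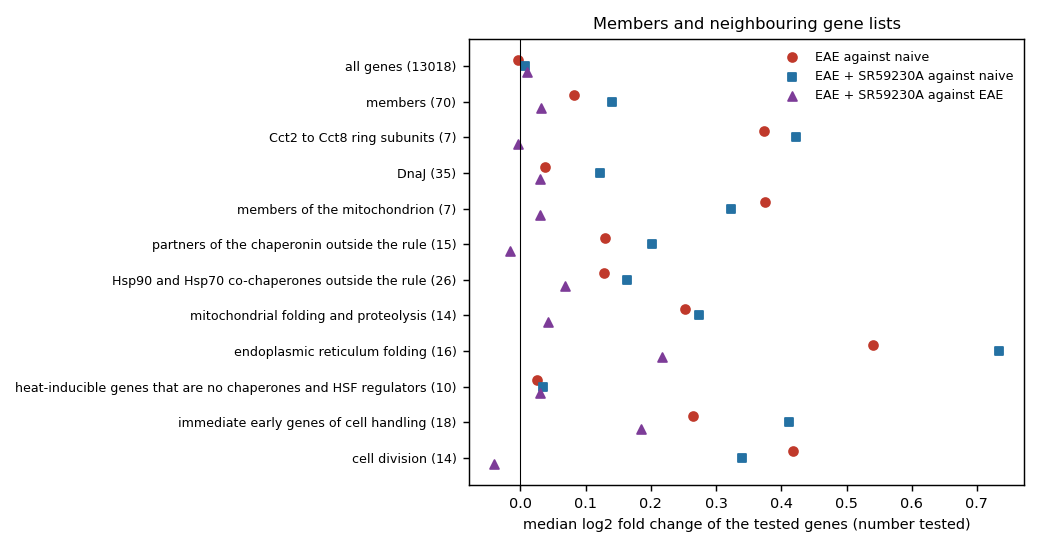
Median log2 fold change of the members, of families among them and of neighbouring gene lists, for the 3 comparisons, with the number of tested genes in brackets. For EAE against naive the CCT ring (0.37) and the members assigned to the mitochondrion (0.37) lie between the members as a whole (0.083) and the endoplasmic reticulum list (0.54). For the antagonist against EAE the ring lies near 0.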

How the data were processed

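RNA was measured in 9 LSK libraries, 3 per group, grouped by their labels, which describe separate mice. Replicates were numbered by accession and are unpaired. Per the labels' protocols, RNA extraction used the RNeasy micro kit. Not given in the sources used here are the aligner, counter, genome build and library kit. DESeq2 is named in the submitters' processing notes (no version, no role). The authors deposited 1 table of whole numbers, treated as a score: in a principal component analysis of ln(value + 1) for the 4577 genes averaging 500 or more, component 7 held 6.7e-05% and component 8 held 5.9e-05% of the variance, which independent read counts cannot do. The 2 missing directions lie 99.4% and 99.8% within groups, so the spread between replicates may be understated.

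Median-of-ratios scaling was applied (factors 0.9005 to 1.107), the 13018 genes that reached a deposited value of 10 in 3 libraries entered the test, and log2(value + 1), which understates changes of low genes, was tested 2-sided with limma-trend (limma 3.58.1, R 4.3.3) on all 9 libraries, with group coefficients and the missing directions as covariates (4 residual degrees of freedom, prior 7.52) and Benjamini-Hochberg adjustment at 0.05. The analysis was tested on simulated data. Named members were those past the threshold in any comparison, the 5 largest rises and falls in each and the core symbols, 39 in all; other genes were named after their values were seen. The members and lists were chosen with earlier results of these data known, and the compartments were assigned with the results known. Promoters came from RefSeq GRCm38.p6 and exon lengths from GENCODE M21. Alternatives changed the scaling, pseudocount, filter, covariates, libraries and trend, and left out each library in turn.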

Additional observations from a re-analysis of the deposited data

How the results depend on the processing

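None of the 32 calls made for named members changed sign in any of 18 alternatives. The pseudocounts of 0.1 and 10, the robust trend and the filters on low values left 15 or 16 members higher in EAE mice and 14 higher in antagonist-treated mice, each against naive. Without scaling, 4 members were higher in EAE and 5 in antagonist-treated mice. Without scaling the median of all genes moved to -0.11 in antagonist-treated against naive mice, and 45.6% of all calls were higher there, against 68.9% with scaling. With upper-quartile scaling 11 and 12 members were higher, and 47% and 46.7% of all calls were, against 64.2% and 68.9%. With group coefficients alone, 20 members were higher and 3 lower in EAE mice and 21 higher in antagonist-treated mice, beside 2062 and 2303 higher genes in all. St13 (adjusted p = 0.0234 and 0.0119) and Hspbap1 (0.047 and 0.0123) then passed in both, Dnaja3 (0.0065) and Dnajb8 (0.036) in EAE and Dnajc11 (0.0131) in antagonist-treated mice. Lower members in antagonist-treated against naive mice numbered 1 with a filter at 100, which drops Hspb3, and 1 with only the 6 libraries compared. Leaving out each library in turn, members higher in EAE against naive mice numbered 0 to 15 and lower 0 to 3, and in antagonist-treated against naive mice 0 to 14 and 0 to 2. These fits keep both covariates and have 1 fewer residual degree of freedom. The covariates were computed from all 9 libraries and are then no longer balanced over the groups. A log2 fold change from such a fit is therefore not the difference of the remaining means. Cct8l1 was called lower in EAE mice without EAE replicate 1 (adjusted p = 0.0183) and with group coefficients alone (0.0425). In antagonist-treated against EAE mice no member passed in any of the 18 alternatives. No paired analysis was possible because the replicate numbers follow accession order and are not in the labels. Depth is unknown, so precision for low genes such as Hspb3, Hspa1a and Bag3 cannot be stated.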
